A study of Mus musculus with 8 samples.

Results

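Day 14 was the middle of a course in which cardiac fibroblasts, the matrix-making cells of the heart, were kept in osteogenic differentiation medium, and the cells at that time were compared with those harvested before the medium was added (day 0). The comparison took in every gene of the table, 24015 gene symbols, of which 13527 were tested because 2 or more of the 8 libraries held 10 or more normalized counts. Both groups were mouse cardiac fibroblasts of wild-type genotype and strain C57BL/6J, labelled with an age of 8 weeks, with 2 libraries each. The day 0 group was untreated, and the day 14 group had been in differentiation medium for 14 days. The other 4 libraries came from days 7 and 21 of the same course and entered the fit, where they helped to estimate the spread between libraries. No library came from cells kept 14 days without the medium, so the medium and the days in culture cannot be told apart. Whether libraries of the same time came from separate cultures or animals is not stated, and the p-values therefore measure only the spread between these samples.

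Fibroblasts at rest keep the connective tissue of an organ in repair by slow turnover of collagens, proteoglycans and elastic fibres. When activated they divide, lay down collagen and acquire the contractile actin bundles of myofibroblasts, and in culture on plastic they usually drift toward that state. Osteogenic media commonly hold a glucocorticoid, ascorbate and a phosphate donor, and are used to bring mesenchymal cells to make bone matrix and deposit mineral. What the medium contained is not stated in the labels.

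Levels are given below as normalized counts, which are reads divided by a size factor for each library, with the first and the second library of a time in that order. A change is the log2 fold change at day 14 over day 0 on the log2(normalized count + 1) scale, with the standard error of the limma fit. A gene was called when its Benjamini-Hochberg adjusted p was below 0.05. The day 0 libraries held 21883498 and 13399313 gene reads, and those of day 14 held 19199575 and 14932213. Of the resident fibroblast list 22 of 22 genes passed the filter. All 23 genes of the macrophage list passed it too, so passing does not identify a cell type. Col1a1, the chief fibroblast collagen, and Pdgfra, a receptor that marks fibroblasts, were well above the filter in every library of both times. In bulk libraries such as these, fewer cells of a type and less RNA per cell cannot be told apart.

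Most of the transcriptome differed between the 2 times. At day 14 4757 genes were higher and 4812 lower than at day 0, 9569 in all or 70.7% of those tested (35.2% higher and 35.6% lower). Of these, 2365 rose and 2168 fell at least 2-fold, and 945 rose and 621 fell at least 4-fold. In 11552 genes, 85.4% of those tested, both libraries of one time lay above both of the other. This held for 9565 of the 9569 called genes, so a lack of overlap adds little to a call. The median change over all tested genes was 0.00. Since so many genes were called, the count for any group below is to be read against 35.2% higher and 35.6% lower.

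**Figure D1:**
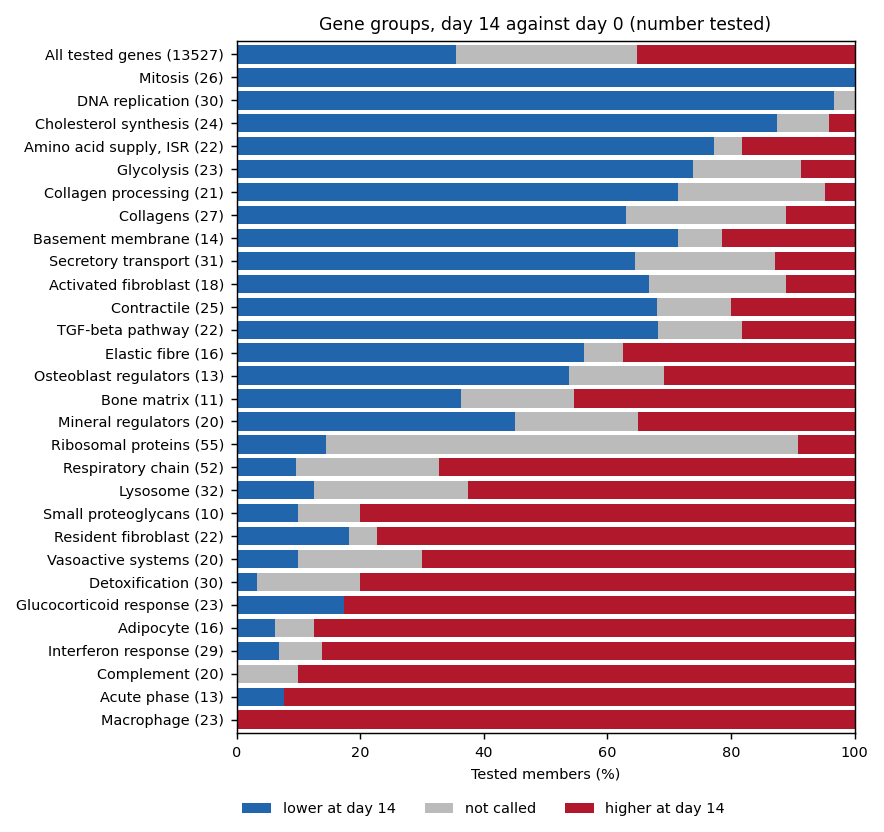
Share of tested members (percent) called lower (blue), not called (grey) or called higher (red) at day 14 against day 0, by gene group, with the number tested in brackets. All tested genes are split into nearly equal higher and lower shares at the top, mitosis members are all blue, and macrophage members are all red.

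The largest rises included genes of xenobiotic and steroid metabolism, the acute phase and myeloid cells. Ahsg, the secreted calcification inhibitor fetuin-A, stood at 3.18 and 5.23 normalized counts at day 0 and 825 and 674 at day 14 (log2 fold change 7.19 ± 0.19, adjusted p = 4.12e-11). Slc10a6, a carrier of sulfated steroids, stood at 6.37 and 22.2 normalized counts at day 0 and 1946 and 1715 at day 14 (log2 fold change 7.13 ± 0.35, adjusted p = 4.39e-09). For both genes the groups were far apart, although the day 0 libraries of Slc10a6 differed among themselves more than those of day 14. Other members of the 15 largest rises were the sulfotransferase Sult1a1 (3.18 and 6.54 to 592 and 686), the protease inhibitor gene Serpina3k (5.57 and 6.54 to 1013 and 802), haptoglobin, Hp, which binds free haemoglobin (281 and 594 to 43477 and 41620.3), and Fmo2, a flavin monooxygenase (102 and 203 to 18698 and 12876). Serpina3k and the Fmo genes have close relatives with which reads may be shared. The glutamine transporter Slc38a5, with a ratio of 273 (95% counting interval 75.2 to 2261), and the mitochondrial acetyl-CoA synthetase Acss1, with a ratio of 127 (95% counting interval 43.2 to 619.9), had 3 or fewer reads over both day 0 libraries. These intervals cover counting error only.

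The largest falls included many genes of cell division and a few epithelial and cartilage genes. Pkp1, a desmosome plaque protein, went from 198 and 187 to 0 and 0 and was at least 126-fold lower, with a floor of 3 reads over the day 14 libraries. Col2a1, the collagen of cartilage, stood at 1916 and 1922 normalized counts at day 0 and 22.8 and 38.6 at day 14 (log2 fold change -5.97 ± 0.41, adjusted p = 6.93e-08). Wisp1, a secreted target of Wnt signalling, stood at 3766 and 3658 normalized counts at day 0 and 119 and 87.7 at day 14 (log2 fold change -5.17 ± 0.15, adjusted p = 6.50e-11). The libraries of the 2 times did not overlap for any of these, which was a condition for the list of largest falls. Krt19, a simple-epithelium keratin, was lower by a ratio of 68.6 (95% counting interval 18.6 to 572), and the cadherin Cdh3 by a ratio of 60.2 (95% counting interval 20.3 to 295). Of the 15 largest falls, Kntc1, Kif23, Mki67, E2f8, Ckap2l, E2f7, Cenpf, Iqgap3 and Plk1 take part in or follow the cell division cycle.

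**Figure D2:**
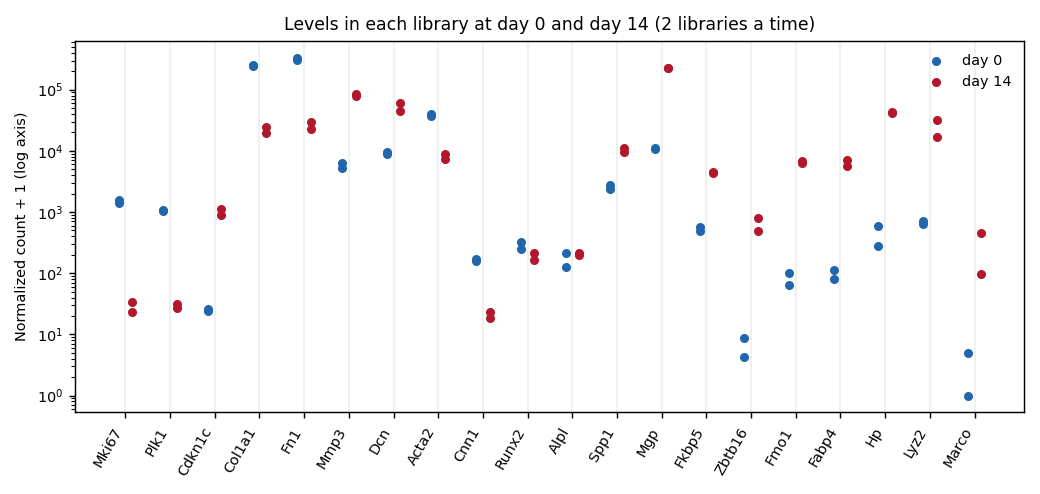
Normalized count plus 1 (log axis) of 20 named genes in each library, day 0 in blue and day 14 in red, 2 points a time. Most pairs of points lie apart by far more than their own gap, while Alpl and Runx2 lie close together and the 2 day 14 points of Marco are spread widely.

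A pair of properties of the day 14 libraries bears on every comparison below. The first is transcript length. Long transcripts were lower and short ones higher: the change fell by 0.381 per doubling of the length of the longest annotated transcript, over 13420 tested genes with a length. With the genes cut by length into 5 groups of nearly equal number, the shortest (up to 1924 bases) had a median change of 0.47, with 1443 higher and 443 lower. In the longest group (from 5216 bases) it was -0.53, with 467 higher and 1548 lower. Genes called higher had a median length of 2698 bases and genes called lower one of 4198. The same slope against day 7 was -0.368, and from day 14 to day 21 it was 0.24, so the day 14 libraries stood apart in length from both neighbouring times.

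The second is the distance between the day 14 libraries themselves, which also followed length. The second day 14 library stood lower than the first by 0.147 log2 units per doubling of length, with medians of 0.215 in the shortest group and -0.199 in the longest. Between the 2 day 0 libraries the slope was -0.0148. Among genes with a mean of at least 50 normalized counts, 103 of 11129 differed more than 2-fold between the day 14 libraries (0.926%), against 3 of 10986 at day 0, 3 at day 7 and 26 at day 21. The median absolute log2 difference was 0.18 at day 14 and 0.0908 at day 0. For 9364 of the 9569 called genes (97.9%) the change from day 0 was larger than the gap between the day 14 libraries. Calls required a change that was large against the spread between libraries, including this gap, so the share was largely set in advance. To weigh both properties, most groups below are given with their median after a trend on length and GC content was removed from every library. After that removal 4270 genes were higher (31.8% of 13420) and 5332 lower (39.7%), and 7716 of 9500 called genes with a length were called in the same direction against 136 in the opposite one. No measure of RNA quality was analysed here, and its part in the slope was not tested.

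**Figure D3:**
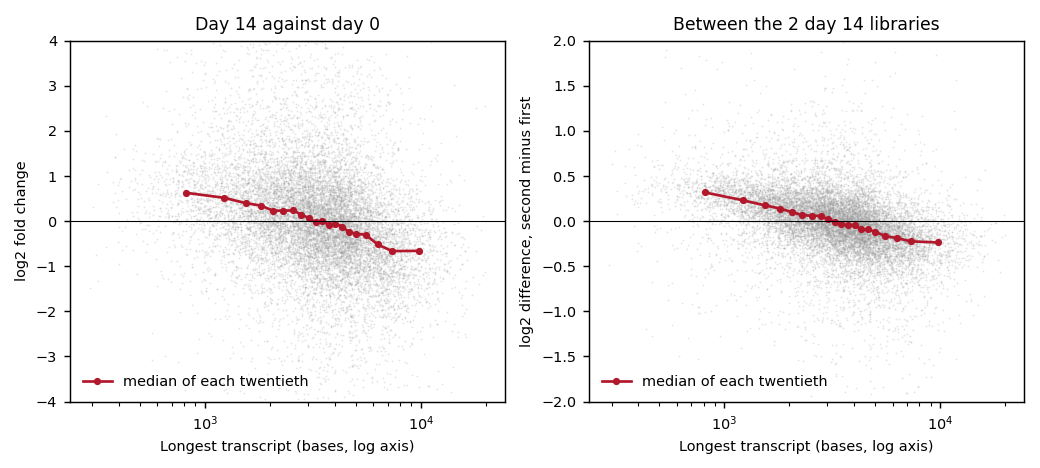
Left, log2 fold change at day 14 over day 0 against the length of the longest transcript (bases, log axis), and right, the log2 difference between the second and the first day 14 library, 1 grey point a gene, with points beyond the axis ends not drawn. The red medians of 20 equal groups of genes fall with length in both panels.

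Genes of cell division were lower almost without exception. Of 26 mitosis genes listed and tested, 26 were lower, with a median change of -4.25 that was -4.47 after removal of the length trend, beside a median of 0.00 for all genes. Mki67, the antigen of cycling cells, stood at 1598 and 1404 normalized counts at day 0 and 21.9 and 32.7 at day 14 (log2 fold change -5.75 ± 0.20, adjusted p = 3.10e-10). Plk1, the kinase that drives entry into and passage through mitosis, stood at 1019.9 and 1059 normalized counts at day 0 and 26.4 and 30.4 at day 14 (log2 fold change -5.15 ± 0.20, adjusted p = 6.33e-10). Kif23, a motor of the midzone where daughter cells part, stood at 384 and 354 normalized counts at day 0 and 4.56 and 5.84 at day 14 (log2 fold change -5.91 ± 0.31, adjusted p = 7.39e-09). In each case both day 14 libraries held a small fraction of the day 0 level. Of 30 replication genes tested, 29 were lower (median -1.89). Uhrf1, which carries DNA methylation through replication, fell from 617 and 547 to 18.2 and 25.7 (-4.68 ± 0.24), and the origin licensing factor Cdc6 from 131 and 137 to 10.02 and 7.01 (-3.84 ± 0.39). The helicase partner Gins1 was the tested member not called (log2 fold change -0.69 ± 0.31, adjusted p = 0.062), and it was called lower under 5 of the 15 alternatives, among them edgeR (log2 -0.68, adjusted p = 0.0476) and removal of the trend (log2 -1.47, adjusted p = 0.000647).

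Inhibitors of cyclin-dependent kinases moved in both directions, with 8 higher and 5 lower of 15 inhibitors, D cyclins and retinoblastoma family genes. Cdkn1c, the inhibitor p57, stood at 23.1 and 24.8 normalized counts at day 0 and 886 and 1101 at day 14 (log2 fold change 5.31 ± 0.13, adjusted p = 3.19e-11). Cdkn2a, the locus of p16 and p19Arf, stood at 486 and 481 normalized counts at day 0 and 2239 and 3019 at day 14 (log2 fold change 2.42 ± 0.13, adjusted p = 8.22e-09). Both were higher in each day 14 library than in either day 0 library. Cyclin D2, Ccnd2, fell from 17137 and 17543 to 6108 and 5024 (-1.65 ± 0.11), while cyclins D1 and D3 were not called (Ccnd1 5498 and 5925 to 6123 and 7173, Ccnd3 3443 and 3769 to 3290.0 and 3665). Without the first day 14 library Ccnd1 was called higher (log2 0.33, adjusted p = 0.038). Of 17 p53 targets 12 were lower and 4 higher (median -1.09, -0.80 after the trend was removed), with the death receptor Tnfrsf10b falling (log2 -2.40 ± 0.12) and the stress protein Sesn1 rising (log2 2.36 ± 0.13).

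Many mitotic promoters carry the cell cycle homology region (CHR), through which repressor complexes act on them outside the dividing cell. The letters TTTGAA, searched on both strands in the 250 bases before the start, were held by 9 of 23 mitosis genes with a promoter in the RefSeq table (39.1%) and by 18.3% of all 27025 genes. The 3 holders with the largest falls are printed, since they join the motif to a group in which every tested member fell. They were chosen after their values were seen. Capitals mark the match on either strand, the sequences are RefSeq of GRCm38.p6 on the strand of the gene, 5′ to 3′, and each ends at the base before the start. They lie at chr7:135716380-135716629 (minus strand), chr4:117178773-117179022 (minus) and chr7:80294226-80294475 (plus). A match is a description and not a site of binding.
Mki67: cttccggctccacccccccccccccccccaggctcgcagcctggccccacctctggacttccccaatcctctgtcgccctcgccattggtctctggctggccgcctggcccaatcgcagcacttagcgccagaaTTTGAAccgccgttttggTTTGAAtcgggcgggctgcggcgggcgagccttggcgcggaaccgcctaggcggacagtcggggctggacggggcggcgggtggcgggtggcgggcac
Kif2c: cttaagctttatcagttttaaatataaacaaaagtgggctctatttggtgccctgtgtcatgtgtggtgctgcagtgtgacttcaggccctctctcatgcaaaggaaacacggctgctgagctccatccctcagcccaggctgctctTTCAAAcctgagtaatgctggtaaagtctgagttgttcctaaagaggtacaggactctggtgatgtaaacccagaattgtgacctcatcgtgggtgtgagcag
Prc1: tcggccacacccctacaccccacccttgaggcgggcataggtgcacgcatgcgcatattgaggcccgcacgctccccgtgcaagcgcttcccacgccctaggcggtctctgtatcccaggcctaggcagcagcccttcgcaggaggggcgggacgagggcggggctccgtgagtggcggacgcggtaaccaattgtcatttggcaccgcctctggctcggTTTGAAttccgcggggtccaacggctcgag
The kinesin Kif2c fell from 426 and 428 to 9.11 and 16.4 normalized counts (-5.01 ± 0.28) and the midzone protein Prc1 from 1102 and 1026 to 34.6 and 40.9 (-4.78 ± 0.16), beside Mki67 above.

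In the matrix, collagens were mostly lower and small proteoglycans mostly higher. Of 27 collagen genes listed and tested, 17 were lower and 3 higher, with a median of -0.67. Col1a1 stood at 242711 and 257184 normalized counts at day 0 and 24910.2 and 19925 at day 14 (log2 fold change -3.49 ± 0.18, adjusted p = 5.72e-09). Col5a1, which sets the width of collagen I fibrils, stood at 37897 and 36541 normalized counts at day 0 and 4723 and 3902 at day 14 (log2 fold change -3.12 ± 0.14, adjusted p = 1.88e-09). Col28a1, a collagen of peripheral nerve and skin, went the other way at 1219 and 1001 normalized counts at day 0 and 20539.7 and 16151 at day 14 (log2 fold change 4.04 ± 0.14, adjusted p = 1.97e-10). The group is one of long transcripts (median 6450 bases), and removal of the trend left a median of -0.27 with 12 lower and 7 higher. The changes of the 3 named genes were then -2.84, -2.30 and 4.17. Enzymes and chaperones that process collagen were lower in 15 of 21 (median -0.88, -0.72 without the trend). Among them were the crosslinking oxidase Loxl2 (16672 and 16445 to 2631 and 2045), the chaperone Fkbp10 (14805 and 15626 to 2673 and 2908) and the prolyl hydroxylase P4ha1 (12212 and 11742 to 3523 and 3297).

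Fibronectin, the scaffold on which other matrix is laid, fell with the collagens: Fn1 stood at 309246 and 334502 normalized counts at day 0 and 29427 and 22916 at day 14 (log2 fold change -3.63 ± 0.21, adjusted p = 1.44e-08). Basement membrane and laminin genes were lower in 10 of 14 tested and higher in 3, with a median of -1.21 (-0.98 without the trend). Laminin beta 1, Lamb1, stood at 15991 and 16004 normalized counts at day 0 and 2534 and 2127 at day 14 (log2 fold change -2.78 ± 0.13, adjusted p = 1.91e-09). Elastic fibre and microfibril genes were split, 6 higher and 9 lower of 16. The fibrillins went apart: Fbn1 fell from 33554 and 38493 to 4025 and 3166 (log2 -3.33 ± 0.14) and Fbn2 rose from 3.18 and 5.23 to 69.2 and 90.0 (log2 3.97 ± 0.31). Fibulin 2, Fbln2, fell from 195727 and 178104 to 22928 and 17916 (log2 -3.20 ± 0.15).

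Small leucine-rich proteoglycans, which bind collagen fibrils and growth factors, were higher in 8 of 10 tested and lower in 1, of 11 listed (median 1.99, 1.80 without the trend). Decorin, Dcn, stood at 9649.7 and 8890.5 normalized counts at day 0 and 61030.5 and 44978 at day 14 (log2 fold change 2.50 ± 0.14, adjusted p = 1.43e-08). Osteomodulin, Omd, a proteoglycan of bone, stood at 8.76 and 10.5 normalized counts at day 0 and 236 and 191 at day 14 (log2 fold change 4.33 ± 0.20, adjusted p = 2.87e-09). Biglycan, Bgn, overlapped between the times (196497 and 205912 to 200921 and 158914, log2 -0.17 ± 0.18). All 10 were lower in the second day 14 library than in the first (median difference -0.35 log2 units). Among 25 matrix proteases and inhibitors 10 were higher and 9 lower. Mmp3, stromelysin, stood at 5309.7 and 6350.2 normalized counts at day 0 and 84572 and 78893 at day 14 (log2 fold change 3.81 ± 0.17, adjusted p = 1.95e-09), and Mmp10, its close relative, rose from 218 and 281 to 3228 and 2361 (log2 3.47 ± 0.18). Timp4, an inhibitor of these enzymes, had no read at day 0 and at least 53.1-fold higher levels at day 14 (0 and 0 to 71.1 and 88.8). Mmp2, gelatinase A, was not called (10335 and 11394 to 11454 and 9869).

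The machinery that moves secreted proteins was mostly lower. Of 31 genes of transport between the endoplasmic reticulum and the Golgi tested, 20 were lower and 4 higher (median -0.80, -1.03 without the trend). Creb3l2, a transcription factor of the secretory pathway, fell from 1936 and 2093 to 402 and 266 (log2 -2.62 ± 0.16), and the coat protein Sec23a, which packs procollagen for export, from 3299 and 3110.4 to 1124 and 872 (log2 -1.69 ± 0.11). Chaperones of the unfolded protein response were lower in 13 and higher in 5 of 24. Pdia4 fell from 7139 and 7203 to 3459 and 2963 (log2 -1.16 ± 0.10), while BiP, Hspa5, was not called (23166 and 20788 to 20169.8 and 19619.8) except with the trend removed (log2 -0.21, adjusted p = 0.0457).

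Markers of activated fibroblasts were mostly lower and markers of resident ones mostly higher. Of 18 activation genes 12 were lower and 2 higher, with a median of -1.55 (-1.22 without the trend). Postn, periostin, the mark of fibroblasts in a healing heart, stood at 19665 and 16858 normalized counts at day 0 and 2402 and 2134 at day 14 (log2 fold change -3.01 ± 0.13, adjusted p = 1.80e-09). Of 22 resident fibroblast genes 17 were higher and 4 lower, with a median of 2.42 (1.91). Tcf21, a transcription factor of resting cardiac fibroblasts, stood at 1933 and 2041 normalized counts at day 0 and 11859 and 10897 at day 14 (log2 fold change 2.52 ± 0.10, adjusted p = 5.39e-10). Scara5, a ferritin receptor, rose from 29.5 and 57.5 to 4531 and 3752 (log2 6.61 ± 0.22), and dermatopontin, Dpt, which helps collagen assemble, from 1513 and 1317 to 18113 and 16849 (log2 3.63 ± 0.10). Gelsolin, Gsn, which severs actin filaments, rose from 14879.9 and 16633 to 283209.7 and 273266 (log2 4.14 ± 0.17). Pdgfra overlapped between the times at 4123 and 4429.6 to 5416 and 3864 (log2 fold change 0.10 ± 0.13, adjusted p = 0.525). It was called higher when the trend was removed (log2 0.57, adjusted p = 0.000141) and when the second day 14 library was left out (log2 0.34, adjusted p = 0.00889).

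The contractile genes of the myofibroblast were mostly lower, 17 of 25 tested against 5 higher, with a median of -1.38 (-1.32 without the trend). Acta2, smooth muscle actin, stood at 37044 and 39457 normalized counts at day 0 and 7294 and 8733 at day 14 (log2 fold change -2.26 ± 0.11, adjusted p = 3.30e-09). Alpha-actinin 1, Actn1, which ties actin bundles together, stood at 36125 and 37662 normalized counts at day 0 and 4894 and 4017 at day 14 (log2 fold change -3.06 ± 0.11, adjusted p = 4.26e-10). Calponin, Cnn1, stood at 166 and 158 normalized counts at day 0 and 17.3 and 22.2 at day 14 (log2 fold change -2.99 ± 0.35, adjusted p = 8.84e-06). None of the 3 overlapped between the times. Components of TGF-beta signalling, the main inducer of that state, were lower in 15 and higher in 4 of 22 (median -0.86, -0.72). Ltbp1, which stores latent TGF-beta in the matrix, fell from 4225 and 4346 to 438 and 339 (log2 -3.47 ± 0.12), and activin A, Inhba, from 974 and 846 to 155 and 65.4 (log2 -3.16 ± 0.30). Follistatin, Fst, which binds activin, rose from 308 and 309 to 2857 and 2588 (log2 3.14 ± 0.12). Targets of the mechanically regulated factors YAP and TAZ were lower in 10 and higher in 2 of 19. Ctgf and Cyr61, often used as their readouts, were not called as tested but were called lower with the trend removed. Ctgf stood at 55298 and 54721 normalized counts at day 0 and 56219.9 and 53697 at day 14 (log2 -0.32, adjusted p = 0.0226 without the trend), and Cyr61 went from 16663 and 16028 to 14155 and 16022 (log2 -0.51, adjusted p = 0.00253).

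Serum response factor reads the state of actin through the CArG box, which many contractile genes carry near their starts. A CArG box was found in 6 of 21 contractile genes with a promoter (28.6%) and in 1.62% of all genes. Of the holders 4 were lower and 2 higher. A pair that fell and one that rose are printed to show the box on both sides, with the match in capitals. They were picked after their values were seen and lie at chr2:156775214-156775463, chr14:20929148-20929397 and chrX:56779433-56779682, all on the plus strand.
Myl9: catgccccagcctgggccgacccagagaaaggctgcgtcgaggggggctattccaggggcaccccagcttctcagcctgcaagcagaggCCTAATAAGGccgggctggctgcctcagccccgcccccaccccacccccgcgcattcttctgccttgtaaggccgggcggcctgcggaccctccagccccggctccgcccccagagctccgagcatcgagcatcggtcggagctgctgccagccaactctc
Vcl: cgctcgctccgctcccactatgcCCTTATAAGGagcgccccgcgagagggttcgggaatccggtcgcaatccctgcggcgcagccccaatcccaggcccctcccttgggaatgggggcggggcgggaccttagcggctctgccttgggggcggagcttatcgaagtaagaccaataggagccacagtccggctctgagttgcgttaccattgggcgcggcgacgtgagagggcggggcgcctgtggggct
Fhl1: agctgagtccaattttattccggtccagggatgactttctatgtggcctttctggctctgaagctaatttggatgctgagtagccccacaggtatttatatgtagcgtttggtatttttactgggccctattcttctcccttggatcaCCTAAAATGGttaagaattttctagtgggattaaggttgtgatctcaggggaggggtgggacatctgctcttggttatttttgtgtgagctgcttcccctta
The myosin light chain Myl9 fell from 3574 and 3524 to 1029.5 and 1518 normalized counts (-1.504 ± 0.15) and vinculin, Vcl, of focal adhesions from 6918 and 6806 to 2571 and 1937 (-1.62 ± 0.14), while the LIM protein Fhl1 rose from 1632 and 1711 to 3409 and 3251 (0.99 ± 0.09).

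Bone genes did not move together. Of 18 osteoblast regulators 13 were tested, with 4 higher and 7 lower (median -0.58). Without the trend 1 was higher and 5 were lower (median -0.16). None of the 4 higher calls held under all 15 alternatives, and 1 was higher without the second day 0 library and 2 without the second day 14 library. Runx2, the factor that starts the osteoblast program, stood at 324 and 244 normalized counts at day 0 and 217 and 162 at day 14 (log2 fold change -0.58 ± 0.20, adjusted p = 0.0189). The libraries of the 2 times did not overlap, but the call depended on single libraries. With the first day 0 library left out Runx2 gave log2 -0.38, adjusted p = 0.19, and with the second of day 14 left out log2 -0.37, adjusted p = 0.133. Removal of the length trend left log2 -0.11, adjusted p = 0.584. Bmpr1b, a BMP receptor, fell from 29.5 and 45.8 to 4.56 and 3.51 (log2 -2.92 ± 0.64) and Foxc2 from 971 and 1038 to 207 and 236 (log2 -2.18 ± 0.12). Of 20 bone matrix and osteocyte genes 11 were tested, 5 higher and 4 lower. Their summed level fell from 479808 and 482145 normalized counts at day 0 to 170237 and 168987 at day 14. Osteopontin, Spp1, stood at 2388 and 2716 normalized counts at day 0 and 9546 and 11082 at day 14 (log2 fold change 2.01 ± 0.16, adjusted p = 2.16e-07). Alkaline phosphatase, Alpl, which frees phosphate for mineral, overlapped between the times (125 and 209 normalized counts at day 0 and 214 and 198 at day 14, log2 fold change 0.34 ± 0.28, adjusted p = 0.291). Tnfsf11, the ligand RANKL that calls up osteoclasts, rose from 14.3 and 20.9 to 130.3 and 79.5 (log2 2.49 ± 0.27). Osteocalcin, Bglap, had 1 read over both day 0 libraries and 7 at day 14 and was not tested, and Sp7 and Ibsp are listed at 0 in every library.

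Regulators of mineral moved in both directions. Of 20 tested 7 were higher and 9 lower (median -0.14), beside 35.2% and 35.6% over all genes. Without the trend 6 were higher and 10 lower (median -0.19). The rises included secreted inhibitors of calcification, and the members that fell are not named here. Mgp, matrix Gla protein, stood at 10601 and 11078 normalized counts at day 0 and 224306 and 222564 at day 14 (log2 fold change 4.37 ± 0.13, adjusted p = 7.47e-11), and Gas6, a vitamin K-dependent ligand of Axl, at 8322 and 9260.5 normalized counts at day 0 and 156757 and 136859 at day 14 (log2 fold change 4.06 ± 0.14, adjusted p = 2.11e-10). Fetub, fetuin-B, rose from 43.8 and 37.9 to 308 and 328 (log2 2.93 ± 0.14), beside fetuin-A, Ahsg, above. In all 4 both day 14 libraries lay above both day 0 libraries. Phospho1, a phosphatase of matrix vesicles, was not called (122 and 161 to 166 and 183), and was called higher once the second day 0 library was dropped (log2 0.51, adjusted p = 0.0342). Of cartilage genes, 6 of 11 were lower and 4 higher among those tested, of 20 listed (median -1.31). The direction depended on the filter: with no filter on low values 7 were higher and 6 lower of 19, with a median of 0.37. The members that rose are not named here. Aggrecan, Acan, fell from 51.8 and 51 to 7.29 and 3.51 (log2 -3.10 ± 0.44), and Matn3, with no read at day 14, was at least 19-fold lower.

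Genes of BMP signalling were higher in 11 and lower in 6 of 24. The antagonist Chrdl1 rose from 8.76 and 3.92 to 234 and 144 (log2 4.73 ± 0.31) and the target Id4, a blocker of helix-loop-helix factors, from 19.1 and 13.1 to 147 and 148 (log2 3.14 ± 0.28). Wnt genes were split, 8 higher and 9 lower of 24 (9 and 7 without the trend), beside 35.2% and 35.6% over all genes. The Wnt target Wisp1 fell, as given above. Dkk3, a secreted member of the Dickkopf family, stood at 146 and 218 normalized counts at day 0 and 5969 and 5106 at day 14 (log2 fold change 4.94 ± 0.16, adjusted p = 1.71e-10), and the feedback target Axin2 rose from 7.96 and 2.61 to 21.9 and 19.9 (log2 1.94 ± 0.40). Notch genes were lower in 9 of 16 and higher in 4, with the receptor Notch4 falling from 1481 and 1589.8 to 218 and 233 (log2 -2.76 ± 0.12) and the target Heyl from 580.4 and 646 to 151 and 174 (log2 -1.91 ± 0.19).

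Genes of the glucocorticoid response were all called, 19 higher and 4 lower of 23, with a median of 3.06 (2.47 without the trend). Fkbp5, a co-chaperone that dampens the receptor, stood at 489 and 574 normalized counts at day 0 and 4365 and 4470.5 at day 14 (log2 fold change 3.06 ± 0.10, adjusted p = 1.71e-10). Zbtb16, the zinc finger factor PLZF, stood at 3.18 and 7.84 normalized counts at day 0 and 812 and 485 at day 14 (log2 fold change 6.69 ± 0.29, adjusted p = 1.51e-09). The core of the glucocorticoid response element, GNACA and TGTNC with 3 bases between them, was found within 250 bases of the start in 2 of 17 of these genes (11.8%) and in 0.44% of all genes. In each motif search a gene counted as a holder if any of its promoters held the letters. The holder Sgk1 has 6 promoters, while all 27025 genes have 32851, so the shares come from unequal lengths of sequence. The absence of these letters in the other promoters says nothing about the receptor, which often binds far from starts.

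Detoxification enzymes, best known from liver, were mostly higher. Of 30 tested 24 were higher and 1 lower (median 2.44, 2.05 without the trend). Beside Fmo2, Fmo1 rose from 62.9 and 99.4 to 6932 and 6328 (log2 6.37 ± 0.16), and the glutathione transferase Gsta3 from 83.6 and 146 to 6135 and 6816 (log2 5.86 ± 0.19). Targets of the antioxidant factor NRF2 were higher in 17 and lower in 3 of 24 (12 and 5 without the trend). Gpx3, a secreted glutathione peroxidase, stood at 9387 and 11858 normalized counts at day 0 and 223196 and 263356 at day 14 (log2 fold change 4.52 ± 0.16, adjusted p = 3.38e-10), while the cystine carrier Slc7a11 fell from 2078 and 2193 to 635 and 698 (log2 -1.68 ± 0.10).

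Fat-cell genes rose as well, 14 of 16 tested against 1 lower, of 20 listed. Fabp4, the fatty acid carrier of adipocytes, stood at 78.8 and 112 normalized counts at day 0 and 5671 and 6967 at day 14 (log2 fold change 6.05 ± 0.15, adjusted p = 3.79e-11). Pparg, which sets the fat-cell fate, stood at 17.5 and 28.8 normalized counts at day 0 and 96.6 and 79.5 at day 14 (log2 fold change 1.92 ± 0.26, adjusted p = 2.91e-05). Plin4, a coat protein of lipid droplets, rose from 25.5 and 19.6 to 492 and 382 (log2 4.22 ± 0.17), and the adipokine gene Adipoq, with no read at day 0, was at least 13.8-fold higher. In lipoprotein handling and cholesterol efflux 10 of 15 were higher and 3 lower. Apolipoprotein E, Apoe, stood at 706 and 757 normalized counts at day 0 and 33972 and 44243 at day 14 (log2 fold change 5.73 ± 0.13, adjusted p = 1.84e-11), and Apod rose from 31.1 and 22.2 to 856 and 581 (log2 4.69 ± 0.19). Cholesterol synthesis and uptake went the other way, with 21 of 24 lower and 1 higher (median -1.21, -1.31 without the trend). Pmvk, a kinase of the mevalonate pathway, was not called (719 and 706 to 584 and 721) but was called lower with the trend removed (log2 -0.66, adjusted p = 8.25e-05). The sterol response element letters, TCAC and CCAC with any 1 base between them, were in 0 of 16 of these promoters and in 1.22% of all genes.

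Vasoactive systems were mostly higher, and the insulin and IGF axis was split. Of 20 vasoactive peptides, enzymes and receptors tested, of 26 listed, 14 were higher and 2 lower (median 2.35, 2.04 without the trend). The median depended on the filter: with no filter on low values it was 1.302, with 15 higher and 3 lower of 26. Angiotensinogen, Agt, the source of angiotensin II, stood at 80.4 and 86.3 normalized counts at day 0 and 2165.7 and 2321 at day 14 (log2 fold change 4.73 ± 0.13, adjusted p = 4.57e-11). Ace, the enzyme that makes angiotensin II, stood at 719.7 and 950.5 normalized counts at day 0 and 27688 and 18369 at day 14 (log2 fold change 4.77 ± 0.18, adjusted p = 5.09e-10). Ramp1 and Ramp2, which turn the calcitonin receptor-like receptor toward CGRP or adrenomedullin, rose from 4.78 and 3.92 to 217 and 303 (log2 5.59 ± 0.35) and from 27.1 and 17 to 338 and 437 (log2 4.10 ± 0.24). Among 20 genes of the insulin and IGF axis 7 were higher and 9 lower (median -0.20), and the rises included binding proteins. Without the trend 10 were higher and 6 lower (median 0.25). Igfbp6 stood at 357 and 465 normalized counts at day 0 and 24692 and 32567 at day 14 (log2 fold change 6.12 ± 0.23, adjusted p = 5.17e-10), and Igfbp3 at 221 and 312 normalized counts at day 0 and 9136 and 7817 at day 14 (log2 fold change 5.00 ± 0.22, adjusted p = 1.69e-09). Fgf18, a growth factor of the skeleton, rose from 64.5 and 58.8 to 337 and 341 (log2 2.44 ± 0.17), and Vegfa fell from 1802 and 1585 to 492 and 457 (log2 -1.83 ± 0.10).

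Complement and acute-phase genes, which fibroblasts as well as liver can make, were higher as groups. Of 20 complement genes 18 were higher and the other two, Cd55 and Masp1, were not called (median 3.50, 3.45 without the trend). C1s1, a protease of the first component, stood at 145 and 200.04 normalized counts at day 0 and 5370.0 and 4119 at day 14 (log2 fold change 4.78 ± 0.16, adjusted p = 1.97e-10), and C2 rose from 5.57 and 22.2 to 950.3 and 736 (log2 6.08 ± 0.39). Cfb, factor B of the alternative pathway, stood at 43.8 and 51 normalized counts at day 0 and 1969.8 and 1004 at day 14 (log2 fold change 4.87 ± 0.23, adjusted p = 2.90e-09). Of 13 acute-phase genes tested 12 were higher and 1 lower (median 4.27, 3.82). Lipocalin 2, Lcn2, which binds bacterial siderophores, stood at 25.5 and 48.4 normalized counts at day 0 and 3283 and 3454 at day 14 (log2 fold change 6.54 ± 0.21, adjusted p = 1.73e-10). Chemokines and NF-kB targets were higher in 16 and lower in 5 of 24, and the rises included the neutrophil attractant Cxcl1 (21.5 and 20.9 to 286 and 452, log2 4.02 ± 0.32).

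Macrophage genes were present at day 0 and higher at day 14. All 23 listed and tested were higher, with a median of 3.43 (3.17 without the trend), and their summed level went from 2221 and 2411 at day 0 to 31544 and 50691 normalized counts at day 14. Lyz2, macrophage lysozyme, which shares sequence with Lyz1, stood at 647 and 715 normalized counts at day 0 and 16975 and 31689 at day 14 (log2 fold change 5.09 ± 0.22, adjusted p = 1.17e-09). Tyrobp, the adaptor DAP12 of myeloid receptors, stood at 8.76 and 9.15 normalized counts at day 0 and 286 and 579 at day 14 (log2 fold change 5.36 ± 0.26, adjusted p = 4.02e-09). Trem2, a lipid-sensing partner of that adaptor, stood at 14.3 and 17 normalized counts at day 0 and 276 and 583 at day 14 (log2 fold change 4.60 ± 0.28, adjusted p = 2.51e-08). The groups of the 2 times were far apart, but the second day 14 library was above the first in 21 of 23, by a median of 0.67. Without that library 22 were higher with a median of 3.27, and without the first 23 with 3.595. Clec4n, Clec4d, Ms4a6c and Chil3, myeloid genes outside the list, were among the 15 largest rises. Ms4a6c showed a ratio of 224 (95% counting interval 61.8 to 1860.0). Of 7 osteoclast genes tested 5 were higher and 2 lower, with the proton pump subunit Atp6v0d2 at 1.59 and 0 to 89.3 and 92.3 and the acid phosphatase Acp5 at 28.7 and 35.3 to 159 and 194. How much of the complement, lysosome and detoxification changes lies in such cells was not tested. The complement genes C1qa, C1qb and C1qc are also on the macrophage list.

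Interferon response genes were mostly higher too, and differed between the day 14 libraries in the opposite direction to the macrophage genes. Of 29 tested 25 were higher and 2 lower, with a median of 1.34 (1.08 without the trend). Oas2, which senses double-stranded RNA, stood at 4.78 and 6.54 normalized counts at day 0 and 261 and 112 at day 14 (log2 fold change 4.71 ± 0.42, adjusted p = 8.13e-07). Bst2, tetherin, stood at 823 and 1162 normalized counts at day 0 and 8429 and 5158 at day 14 (log2 fold change 2.75 ± 0.21, adjusted p = 1.77e-07). Ifi44 stood at 60.5 and 73.2 normalized counts at day 0 and 347 and 95.8 at day 14 (log2 fold change 1.44 ± 0.44, adjusted p = 0.011). The second library was above the first in 1 of 29, and the median difference was -0.71. Without the first day 14 library 20 were higher with a median of 1.05, and without the second 26 with 1.71. Ifi44 was not called when the first day 14 library was left out (log2 0.52, adjusted p = 0.122) or the first of day 0 (log2 1.31, adjusted p = 0.0719). Antigen presentation genes were higher in 12 of 15 tested, with the class I genes H2-D1 (710.2 and 849.8 to 4323 and 3689.7) and H2-T23 (489 and 617 to 4944 and 3020.0) among them, and class I genes share reads with each other. Their median went from 1.71 to 0.77 when the trend was removed.

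Many interferon-induced promoters carry the interferon-stimulated response element (ISRE). Its core, GAAA and GAAA with any 2 bases between them, on either strand, was held by 12 of 22 interferon genes with a promoter (54.5%) and by 3.46% of all genes. Of the holders 10 were higher, 1 lower and 1 not called. The 3 holders with the largest rises and the one that fell are printed, with the matches in capitals. They too were picked after their values were seen, and lie at chr5:120777660-120777909 (minus strand), chr8:71537473-71537722 (minus), chr3:142559794-142560043 (plus) and chr11:48871421-48871670 (minus).
Oas3: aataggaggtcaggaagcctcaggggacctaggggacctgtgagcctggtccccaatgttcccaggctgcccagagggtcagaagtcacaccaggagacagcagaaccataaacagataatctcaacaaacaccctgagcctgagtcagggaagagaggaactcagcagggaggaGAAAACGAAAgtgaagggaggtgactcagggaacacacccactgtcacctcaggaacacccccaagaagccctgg
Bst2: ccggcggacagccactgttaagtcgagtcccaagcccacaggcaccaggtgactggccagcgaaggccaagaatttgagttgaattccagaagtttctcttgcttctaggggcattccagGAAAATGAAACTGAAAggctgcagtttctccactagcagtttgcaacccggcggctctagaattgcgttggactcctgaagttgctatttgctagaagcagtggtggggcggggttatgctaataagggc
Gbp3: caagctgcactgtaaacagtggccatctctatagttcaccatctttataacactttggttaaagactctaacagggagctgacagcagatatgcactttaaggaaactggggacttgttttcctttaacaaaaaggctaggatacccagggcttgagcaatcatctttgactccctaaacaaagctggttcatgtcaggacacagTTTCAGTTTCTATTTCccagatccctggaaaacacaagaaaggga
Irgm1: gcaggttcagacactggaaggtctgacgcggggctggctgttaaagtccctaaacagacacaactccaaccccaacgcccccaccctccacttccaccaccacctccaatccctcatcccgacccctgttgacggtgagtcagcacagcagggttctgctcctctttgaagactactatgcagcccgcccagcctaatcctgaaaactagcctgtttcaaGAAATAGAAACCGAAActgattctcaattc
Oas3 rose from 4.78 and 0 to 27.3 and 12.9 normalized counts (3.04 ± 0.67) and the guanylate-binding protein gene Gbp3 from 122 and 171 to 1265 and 602 (2.59 ± 0.28). The GTPase gene Irgm1, whose promoter holds the same core, fell from 2975 and 3299.9 to 2032 and 1305 (-0.94 ± 0.16).

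**Figure D4:**
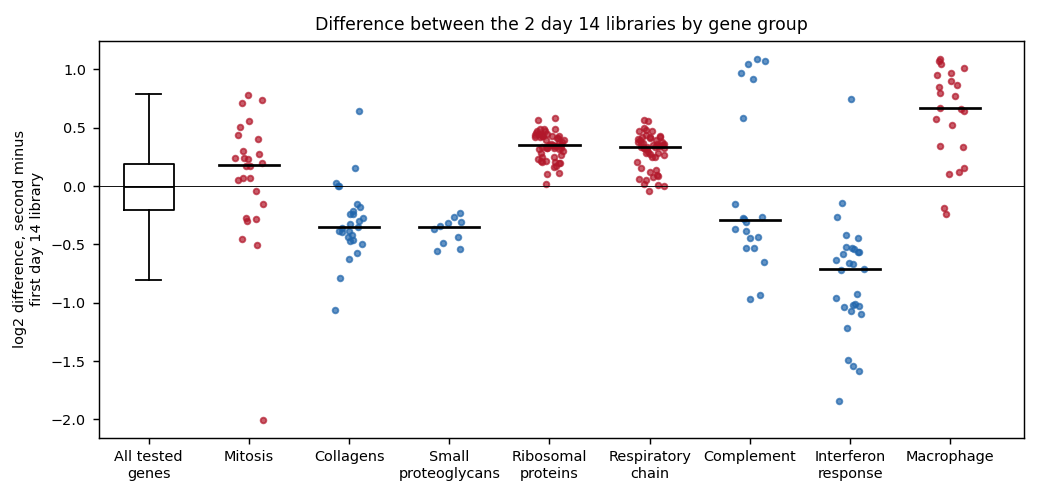
Log2 difference between the second and the first day 14 library for each tested member of 8 gene groups (points, with the median as a black line, red where it is above 0 and blue where below), beside a box (median, quartiles, whiskers to 1.5 interquartile ranges) of all tested genes. Of the macrophage members 21 of 23 sit above 0 and of the interferon response members 1 of 29, while ribosomal protein and respiratory chain members are shifted upward as narrow bands.

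The 8 genes with the widest gap between the day 14 libraries included Ifi44 and 2 myeloid genes. Marco, a scavenger receptor of macrophages, stood at 0 and 3.92 normalized counts at day 0 and 96.6 and 452 at day 14, with 3 reads over both day 0 libraries and a ratio of 170.0 (95% counting interval 57.8 to 827). Wfdc17, a small secreted protein of myeloid cells, stood at 0.796 and 7.84 normalized counts at day 0 and 209.6 and 743 at day 14 (log2 fold change 6.63 ± 0.64, adjusted p = 1.43e-06). Both were above day 0 in each day 14 library and higher in the second. Cbr2, a carbonyl reductase, stood at 20.7 and 22.2 normalized counts at day 0 and 34.6 and 168 at day 14, and its call was lost without the second library (log2 0.67, adjusted p = 0.0878). Zbed6, a repressor encoded inside an intron of another gene, stood at 286 and 204 normalized counts at day 0 and 103 and 18.7 at day 14 (log2 fold change -2.42 ± 0.52, adjusted p = 0.00107), Uhmk1, a kinase, at 175 and 173 normalized counts at day 0 and 83.8 and 18.7 at day 14 and Nrip1, a nuclear receptor corepressor, at 239.7 and 243 normalized counts at day 0 and 164 and 45.6 at day 14. These 3 were lower in the second library, and the longest transcripts of Uhmk1 and Nrip1 have 7864 and 7868 bases.

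Energy metabolism and growth supply changed unevenly. Of 23 glycolysis genes 17 were lower and 2 higher (median -1.06, -0.89 without the trend). Slc16a3, the lactate exporter MCT4, stood at 833 and 937 normalized counts at day 0 and 38.3 and 43.2 at day 14 (log2 fold change -4.41 ± 0.16, adjusted p = 4.22e-10). Hexokinase 2, Hk2, fell from 873 and 839 to 220.5 and 210.4 (log2 -1.99 ± 0.11), and Ldhb, the heart form of lactate dehydrogenase, rose from 183 and 199 to 922 and 1155 (log2 2.43 ± 0.12). Pdk4, which shuts pyruvate out of the citric acid cycle, stood at 120.2 and 139 normalized counts at day 0 and 4278 and 3773 at day 14 (log2 fold change 4.95 ± 0.10, adjusted p = 1.24e-11). Genes of amino acid supply and the integrated stress response were lower in 17 and higher in 4 of 22 (median -1.59, -1.52). The large neutral amino acid carrier Slc7a5 fell from 3115 and 3305 to 369 and 289 (log2 -3.29 ± 0.12), and the serine synthesis enzyme Psat1 from 3872 and 4347 to 843 and 871 (log2 -2.26 ± 0.13). Lysosome genes were higher in 20 and lower in 4 of 32, with cathepsin L, Ctsl, at 11770.0 and 11996 normalized counts at day 0 and 38749.7 and 36508 at day 14 (log2 fold change 1.66 ± 0.11, adjusted p = 8.23e-08). Of 23 autophagy genes 12 were higher and 3 lower, and the rises included Gabarapl1, a membrane tag of autophagosomes (2787 and 2709 to 10915 and 11409).

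For groups of short transcripts the counts depended on the length trend. Respiratory chain genes, of median length 1232 bases, were higher in 35 and lower in 5 of 52 with a median of 0.59. Without the trend they were higher in 13 and lower in 22, with a median of -0.07. Ndufa1, a small subunit of complex I, stood at 804 and 894 normalized counts at day 0 and 2287 and 2890.3 at day 14 (log2 fold change 1.60 ± 0.13, adjusted p = 2.52e-07), and 0.66 was left without the trend. Proteasome genes went from 18 higher and 6 lower of 34 to 2 higher and 22 lower. Ribosomal protein genes, many of which share reads with pseudogenes, were mostly not called (5 higher and 8 lower of 55), and 47 were lower without the trend (median 0.03 against -0.62). Rps2 was lower in both (14500.1 and 15260.3 to 6307 and 6767, log2 -1.19 ± 0.11 and -1.78). All 55 ribosomal protein genes and 51 of 52 respiratory chain genes were higher in the second day 14 library than in the first. Without the second library 0 ribosomal protein genes were higher and 17 lower (median -0.18), and without the first 20 were higher and 4 lower (median 0.23). Fatty acid oxidation genes went from 14 to 8 higher and from 4 to 9 lower of 24.

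**Figure D5:**
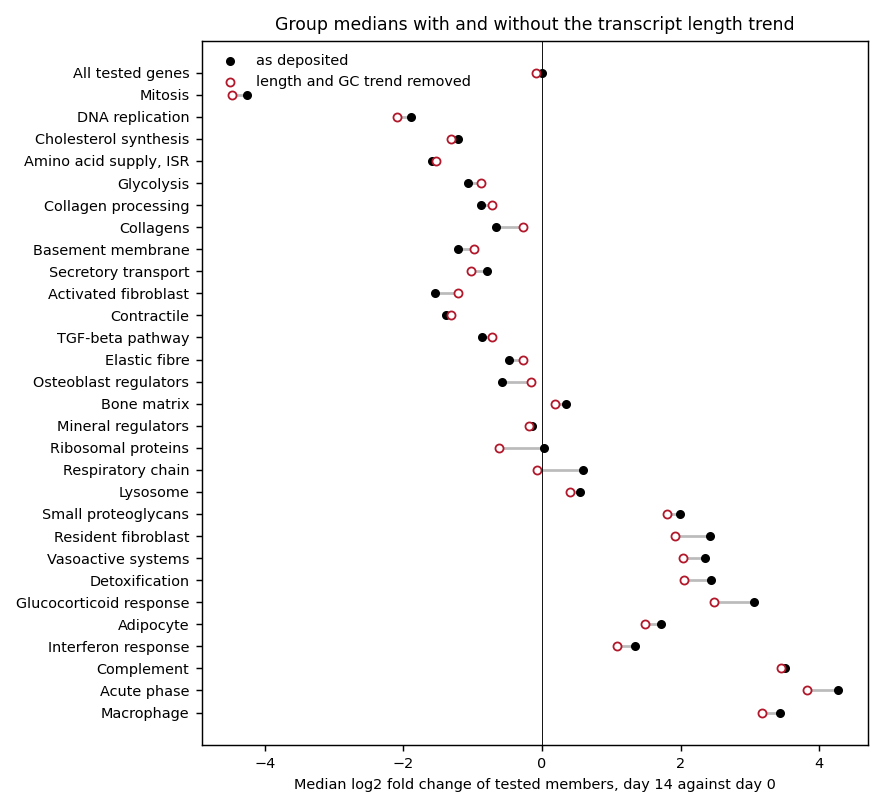
Median log2 fold change of tested members at day 14 against day 0 by gene group, as deposited (black) and after a trend on transcript length and GC content was removed from each library (open red). The respiratory chain median moves to about 0 and the ribosomal protein median below it, while those of mitosis, complement, macrophage and acute-phase genes stay far from 0.

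Markers of other cell types were checked for the day 14 libraries. Of endothelial genes, 7 of 11 were lower and 1 higher. The junction cadherin Cdh5 fell from 177 and 183 to 14.6 and 10.5 (log2 -3.76 ± 0.34), while the VEGF receptor Flt1 rose from 37.4 and 30.1 to 246 and 171 (log2 2.58 ± 0.19). Of 12 cardiomyocyte genes 3 passed the filter, and all 3 were called higher. The filter counts all 8 libraries, so genes near 0 at day 0 can pass through their later levels. With no filter on low values 5 of 11 were higher and 1 lower. With a minimum value of 50 only 1 gene was left. Myh6, the main cardiac myosin, had no read in any library. Nearly all of the listed sum at day 0 (1217 and 1141 normalized counts) was Tnnt2, given next. Tnnt2, cardiac troponin T, stood at 1207 and 1134 normalized counts at day 0 and 22419 and 28771 at day 14 (log2 fold change 4.44 ± 0.21, adjusted p = 2.74e-09). Of 11 lymphoid genes 0 passed the filter and 6 had no read in any library. Of 6 mesothelial and epithelial genes tested 2 were higher and 3 lower, with mesothelin, Msln, at 19.1 and 19.6 normalized counts at day 0 and 1103 and 1254 at day 14 (log2 fold change 5.85 ± 0.32, adjusted p = 1.01e-08) and Lrrn4 falling from 293 and 297 to 22.8 and 15.2 (log2 -3.91 ± 0.35). Of smooth muscle and pericyte genes, 5 of 10 were lower and 2 higher, with Mcam at 504 and 545 to 67.4 and 84.1. Transcription factors of the heart were split evenly, 6 higher and 6 lower of 15.

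Set beside its neighbours in time, day 14 differed from day 7 in 7038 genes (52.0% of those tested), 3385 higher (25.0%) and 3653 lower (27.0%). From day 14 to day 21 4664 genes were called (34.5%), 2735 higher (20.2%) and 1929 lower (14.3%). The total of 4664 fell to 2561 without the second day 14 library and to 2303 without the second day 21 library. The comparisons share the day 14 libraries. Neat1, a nuclear long noncoding RNA of paraspeckles, stood at 438 and 299 normalized counts at day 0 and 6330.3 and 9766 at day 14 with means of 1681 at day 7 and 1146 at day 21 (day 21 over day 14, log2 fold change -2.80, adjusted p = 2.28e-05). Snhg11, another long noncoding RNA, stood at 5.57 and 10.5 normalized counts at day 0 and 425 and 421 at day 14 with means of 64 and 75.2 at days 7 and 21 (log2 fold change -2.60, adjusted p = 0.000451). Meg3, an imprinted noncoding RNA, went from 95.5 and 68 to 282 and 323 with a mean of 32.5 at day 21 (log2 fold change -3.24, adjusted p = 2.41e-05). These 3 were higher at day 14 than at day 0 and lower again a week later.

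Fndc1, a secreted protein with fibronectin repeats, fell from 14529 and 15959.8 to 788 and 565 and had means of 3868 at day 7 and 2539 at day 21 (day 14 over day 7, log2 fold change -2.53, adjusted p = 2.99e-06). Pcdhgc5, a protocadherin that shares its last exons with its cluster, fell from 951 and 965 to 57.4 and 24.5, with means of 253 and 109.7 at days 7 and 21 (log2 fold change -2.72, adjusted p = 3.15e-05). The complement protease gene Cfd, with a ratio of 114 (95% counting interval 20.01 to 4536) over day 0, and Mmp9, gelatinase B, at 3.18 and 1.31 to 98.4 and 129.7, were among the largest rises from day 7 to day 14. Cfd had no read at day 7, and for Mmp9 the change was log2 fold change 4.55, adjusted p = 6.07e-05. Immediate early genes, which respond within minutes to a stimulus, were higher than at day 0 in 15 and lower in 6 of 26. Fos stood at 561 and 574 normalized counts at day 0 and 3888 and 5252 at day 14 (log2 fold change 2.99 ± 0.16, adjusted p = 9.62e-09), and Fosb at 30.3 and 45.8 normalized counts at day 0 and 186 and 328 at day 14 with a mean of 4814 at day 21 (log2 fold change 4.26, adjusted p = 3.41e-06). Jun went the other way, from 905 and 858 to 375 and 450.0, with a mean of 3446 at day 21. Nr4a3 and Nr4a2 were not called at day 14 against day 0 (9.55 and 19.6 to 14.6 and 8.18, and 53.3 and 65.4 to 47.4 and 40.9). Their means at day 21 were 211 and 340.1 (log2 fold change 4.11, adjusted p = 4.37e-05 and log2 fold change 2.87, adjusted p = 2.28e-05).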

How the data were processed

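RNA-seq was made from 8 libraries of mouse cardiac fibroblasts, 2 at each of days 0, 7, 14 and 21. The authors deposited a normalized signal per gene, which is reads divided by 1 size factor per library. TopHat2 2.0.11, HTSeq 0.6.1, DESeq and the genome build mm9 appear in the submitters' processing notes, without their roles. Annotation and strandedness were not stated. Reads were recovered from the steps of the deposited signal, and all values came out whole within 0.01 reads.

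Values were taken as log2(normalized count + 1). Genes at 10 or more in 2 or more libraries were fitted with limma 3.58.1 (trend) over all 8 libraries, with 4 residual and 8.16 prior degrees of freedom and Benjamini-Hochberg adjustment over 13527 genes. edgeR 4.0.16 and DESeq2 1.42.0 were run on the recovered reads as alternatives, among 15. Other tools were R 4.3.3, Python 3.11.15 and matplotlib 3.10.9. The fits were checked on simulated data. Lengths and GC content came from GENCODE M21 for 23638 symbols (98.4%), and promoters of 250 bases from RefSeq GRCm38.p6.

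The members of the 59 gene lists and the comparison were chosen with earlier results of these data known, so list counts are descriptions. A gene can be on more than 1 list. Named genes are the 15 largest rises and falls (called, without overlap, and averaging 50 or more at the time with the larger level), leaving out predicted gene models, the 5 largest left after trend removal, the 8 with the widest gap between the day 14 libraries, the 5 largest per direction against days 7 and 21, up to 4 called and 2 uncalled members a list, and a fixed set that includes Runx2, Alpl and Col1a1. Not all of these are printed, some are not reported here, and holders of printed promoters were chosen after their values were seen. A group with 0 reads was set to a floor of 3 reads over the group, and 1 to 3 reads gave a 95% interval that covers counting error only.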

Additional observations from a re-analysis of the deposited data

How the results depend on the processing

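Of the 9569 genes called between days 0 and 14, 6736 (70.4%) were called in the same direction under each of the 15 alternatives that tested them. A gene that an alternative left out was not counted against it. The minimum value of 50 tested 8547 of the called genes, and trend removal tested 9500. The number called ranged from 8568 with a minimum value of 50 to 10139 with no filter on low values, and from 8335 to 9521 when each library of the 2 times was left out. When a time keeps 1 library, that library is assumed to vary like the other times. The replicate block gave 9522 calls, and correlations of deviations between same-numbered libraries lay between -0.0356 and 0.0737. These values show no strong effect shared by number across genes. With 2 libraries a time they cannot tell whether same-numbered libraries shared an animal or culture. The count for day 21 against day 14 was 2635 when only those 4 libraries were fitted, and it ranged from 2303 to 5750 with single libraries left out. The slope on transcript length was -0.232 with no filter on low values, and -0.455 to -0.308 with single libraries left out. Among named genes, calls of Runx2, Ifi44 and Cbr2 were lost under the settings given with them, and that of Nrip1 with DESeq2 (log2 -1.19, adjusted p = 0.0679). Ctgf, Cyr61, Pdgfra, Pmvk, Gins1, Hspa5, Ccnd1 and Phospho1, not called as tested, were each called under at least 1 alternative. All but Hspa5 and Phospho1 were called with the trend removed and the block added (Ccnd1 log2 0.25, adjusted p = 0.0440). Ribosomal protein genes had 8 lower as tested, 47 after the length and GC trend was removed, and 46 with the block as well. Respiratory chain genes had 35 and 13 higher, and proteasome genes 18 and 2, before and after that removal, with 11 proteasome genes higher without the first day 0 library. Smaller counts moved too: the removal took lower lysosome genes from 4 to 8, lower detoxification genes from 1 to 4, higher TGF-beta components from 4 to 7 and higher YAP targets from 2 to 4, and higher genes of secretory transport and of the integrated stress response each from 4 to 2. Low depth limits genes with few reads, whose folds are given only as bounds or intervals.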
